A study of Mus musculus with 4 samples.

Results

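The genes described here are 9 members of the growth hormone and insulin-like growth factor (IGF) axis in liver: Igf1, Igfals, Igfbp1, Igfbp2, Igfbp3, Igfbp4, Ghr, Socs2 and Cish. They were taken as all probe sets whose single gene symbol in the array's annotation is one of these names, which gave 16 of 12422 probe sets, control probe sets left out, and 9 of the 8251 genes that have such a probe set. Pituitary growth hormone binds its receptor, encoded by Ghr, on hepatocytes, and signals through the kinase JAK2 and the transcription factor STAT5. Igf1, the gene of the growth factor that liver releases into blood, and Igfals, the gene of the acid-labile subunit that holds IGF in a long-lived plasma complex, are targets of that signal, as are Socs2 and Cish, which encode feedback inhibitors of it. The binding proteins encoded by Igfbp1 to Igfbp4 carry IGF in plasma and tissue fluid, and Igfbp1 is known as a gene that insulin represses and fasting and glucocorticoids induce.

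Livers came from male C57BL/6 mice, and their messenger RNA was measured on 4 Affymetrix MG_U74Av2 arrays, 1 for each combination of an operation with a time of day. Sham-operated mice kept their adrenal glands and were given chow and water, while ADX mice had both adrenals removed under ketamine and xylazine and were given the same type of chow with saline to drink. Each operation was sampled at zeitgeber time (ZT) 2, early in the light phase, and at ZT14, early in the dark phase, ZT being the hours after lights on. Age, and whether the RNA on an array was from a single mouse or from several, are not in the labels. With 1 array per group there is no replicate check on any difference. The design allows 4 comparisons: ZT14 against ZT2 within sham and within ADX, called day-night differences here, and ADX against sham at each time. Each array enters 2 of them, so they are not independent of one another, and saline drinking cannot be told apart from loss of the adrenals.

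Values are single-array Affymetrix signals, an intensity on a linear scale, after each array was scaled to a common trimmed mean. A probe set passed 2-fold when it differed at least 2-fold and carried a Present detection call on the brighter array. Of the probe sets, 44.4% to 47.0% were Present on an array. The 8 hepatocyte markers on the array were Present on all 4 arrays. None of the 5 skeletal muscle markers or 3 bile duct markers on it was Present on any. Some markers of other sources were Present on all 4 arrays. Of 3 red cell markers on the array, Hba-a1 and Alas2 were, while Slc4a1 was Present on none. The only exocrine pancreas marker on the array, Cela1, was Present on all. Of 4 adipose markers Fabp4 was, while Adipoq, Retn and Lep were Present on none. The summed red cell signal was 1757.0 and 1061.4 in sham at ZT2 and ZT14, and 1474.2 and 1967.2 in ADX, and its part in the results was not tested. Of the 16 probe sets of the 9 genes, 12 were Present on all 4 arrays and covered every gene, and 4 were Present on none. The latter were additional probe sets of Igfals (162450_f_at), Igfbp1 (103897_r_at), Igfbp3 (95083_at) and Igfbp4 (101570_at), with signals of at most 28.9, and no result rests on them.

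The stretch before the start of Igfbp1 is shown because that gene had by far the widest range of signal among the 9. It comes from RefSeq (build GRCm38.p6, plus strand, chr11:7197537-7197786) and covers the 250 bases before the annotated start, with matches to CAAAACA and CAAAATA in capitals, the letters of insulin response sequences bound by FOXO factors.
Igfbp1: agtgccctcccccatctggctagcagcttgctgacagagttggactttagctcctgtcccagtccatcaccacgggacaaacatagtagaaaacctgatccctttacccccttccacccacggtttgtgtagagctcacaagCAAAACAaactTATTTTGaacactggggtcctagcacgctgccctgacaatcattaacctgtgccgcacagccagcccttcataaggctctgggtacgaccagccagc
The first match lies at bases -108 to -102 from the start. The other is read on the opposite strand, at bases -97 to -91. Both strands of 32851 promoter windows of 300 bases (250 before a start and 50 from it on) were searched. CAAAACA was found in 6.28% of them, CAAAATA in 4.36% and both in 0.472%. Windows were read for 8 of the 9 genes, Socs2 being the other, and among them Igfbp1 alone held either sequence. The hexamer AGAACA, of which glucocorticoid receptors bind paired copies, was in windows of Igfals and Igfbp2 (19.0% of all windows) and not in that of Igfbp1, and the E-box CACGTG, which clock activators bind, was in one of Igfbp2 (7.15% of all windows). Only exact copies of the hexamer were sought, so a receptor site with other letters would have been missed.

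The spaced palindrome TTCNNNGAA, where N is any base, is the core that STAT5 binds, and it reads the same on both strands. It is shown in capitals for Cish and Igfals, the 2 genes of the axis whose windows held it, in runs of 30 bases of the plus strand of the same build: chr9:107296654-107296683 for Cish, and chr17:24877597-24877626 and chr17:24878162-24878191 before separate annotated starts of Igfals.
Cish: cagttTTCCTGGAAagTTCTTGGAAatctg
Igfals, first start: cgatctataatTTCTCAGAAaagaggctga
Igfals, second start: tctgccaggtgTTCCTAGAAgaggccctgg
Of all windows, 8.3% held this core and 0.457% held it at least 2 times, as Cish did. These matches describe the letters only, and no binding was measured.

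Igfbp1, the insulin-repressed binding protein gene, differed most of the 9 genes. Its probe set (103896_f_at) had a signal in sham of 547.3 at ZT2 and 24.1 at ZT14, and in ADX of 125.2 at ZT2 and 34.6 at ZT14. The sham ZT2 array stands alone at the top, the ADX ZT2 array is next, and both ZT14 arrays are low. The signal was 22.7-fold lower at ZT14 than at ZT2 in sham and 3.62-fold lower in ADX. In ADX it was 4.37-fold lower than in sham at ZT2, while at ZT14 it was 1.43-fold higher in ADX, short of 2-fold. Of the 6166 probe sets with a Present call in the sham pair, the log2 difference of Igfbp1, -4.50, was the 2nd lowest, and among 6125 in the ADX pair its -1.86 was the 15th lowest. At ZT2 its log2 difference between ADX and sham, -2.13, was the 2nd lowest of 6247. The letter f in the name of this probe set marks, in the array maker's naming, probes that can match related sequences. The other probe set of the gene (103897_r_at) was Absent on all 4 arrays, with a signal of 3.33 on sham ZT2.

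**Figure D1:**
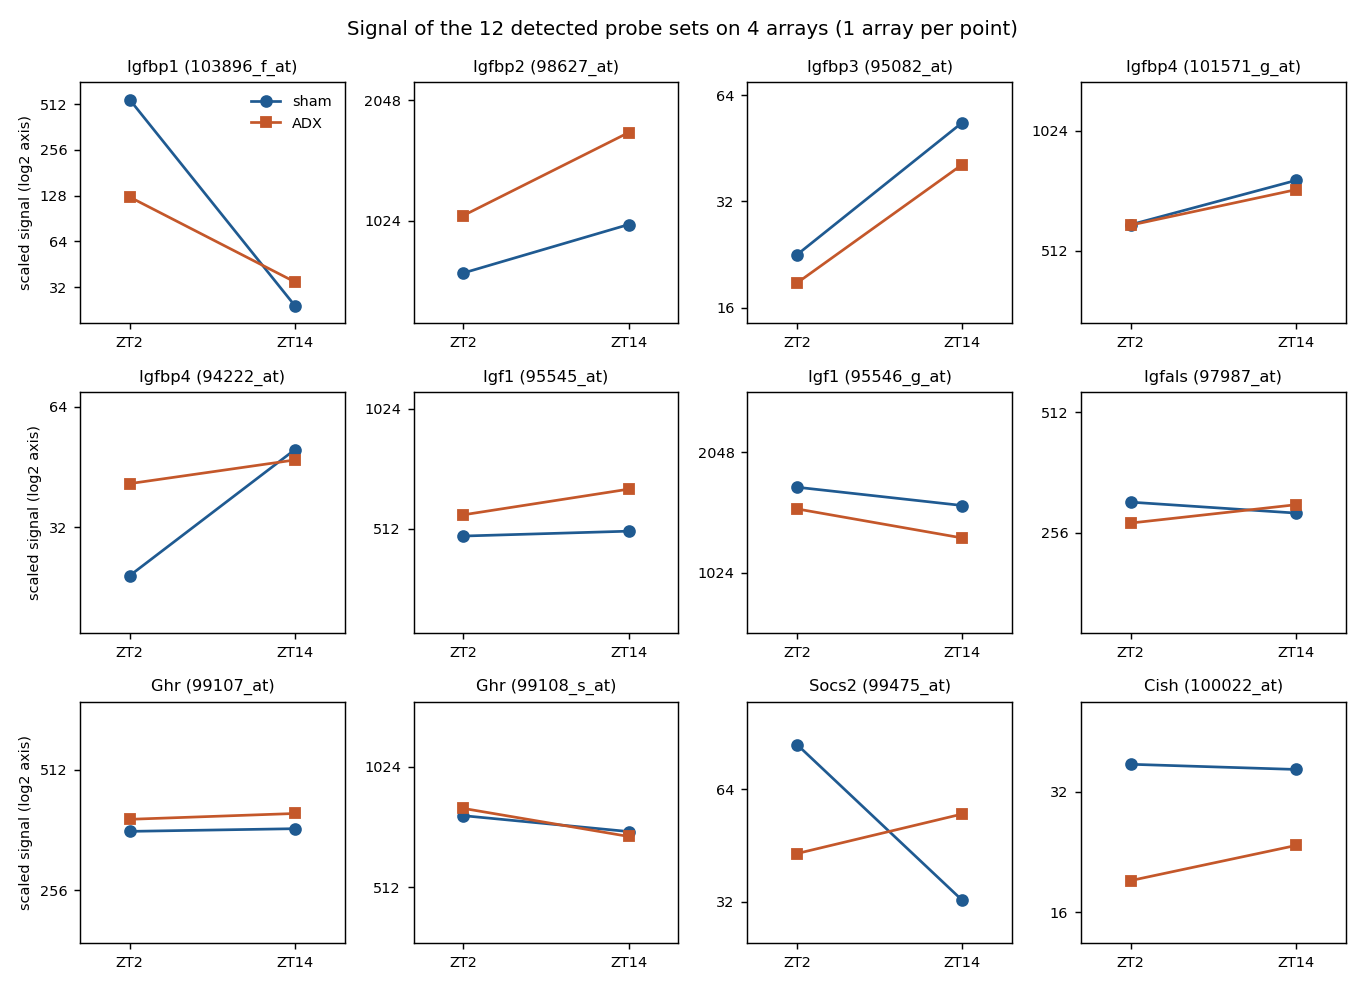
Scaled signal (log2 axis, arbitrary units) of the 12 probe sets Present on all arrays, at ZT2 and ZT14, in sham (circles) and ADX (squares), with 1 array per point, no error bars and a separate axis range in each panel. Igfbp1 went from 547.3 to 24.1 in sham and from 125.2 to 34.6 in ADX, and Socs2 fell in sham and rose in ADX.

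The day-night difference of Igfbp1 was therefore larger in sham, and the log2 difference of ADX minus that of sham was 2.65. Of 4877 probe sets Present on all 4 arrays, 3.47% had such a difference of at least 1 in size. Of the 12 probe sets of the axis 2 did, Igfbp1 and Socs2. With 1 array per group this difference was not tested.

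Igfbp3, the gene of the main IGF carrier of plasma, which in liver is known to come largely from cells other than hepatocytes, went the opposite way to Igfbp1. Its signal (95082_at) was in sham 22.6 at ZT2 and 53.5 at ZT14, and in ADX 18.8 at ZT2 and 40.7 at ZT14. Both ZT14 arrays were above both ZT2 arrays, 2.37-fold higher in sham and 2.17-fold in ADX. Between operations it was 1.2-fold lower in ADX at ZT2 and 1.31-fold lower at ZT14, both short of 2-fold. The Igfbp3 probe set without a Present call (95083_at) had 14.9 and 13.9 in sham at ZT2 and ZT14, and 28.9 and 24.0 in ADX. It shared neither the direction between times nor that between operations. In a whole liver sample, fewer cells of a type and less RNA per cell cannot be told apart. Of 9 endothelial markers, 7 were Present on at least 1 array (Pecam1 and Vwf on none), and their summed signal over all 9 was 573.0 and 443.5 in sham at ZT2 and ZT14, and 569.8 and 463.5 in ADX. Of 8 macrophage markers on the array 7 were Present (Marco was not), with sums of 1011.0, 911.2, 1063.8 and 933.5. Both sums were lower at ZT14 than at ZT2 in each operation, where Igfbp3 was higher. Of 9 stellate cell and fibroblast markers 6 were Present on at least 1 array (Des, Vim and Pdgfrb on none), and only Reln, Col3a1 and Dcn on all 4. The sums were 856.4, 866.3, 956.2 and 894.6 and had no common direction between times. The median log2 difference of the 6 markers Present on at least 1 array, ZT14 against ZT2, was 0.15 in sham and 0.12 in ADX, the direction of Igfbp3. It was -0.35 and -0.11 for the endothelial markers, and -0.16 and -0.06 for the macrophage markers. The part of these cells in the Igfbp3 result was not tested. RefSeq places Igfbp1 and Igfbp3 next to each other among protein-coding genes on chromosome 11.

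Igfbp2, which encodes another abundant binding protein from hepatocytes, had signals of 758.6, 1002.6, 1056.0 and 1702.3 (98627_at), with sham at ZT2 and ZT14 given first here and below, followed by ADX at ZT2 and ZT14. The ADX ZT14 array was the highest and the sham ZT2 array the lowest, the reverse of Igfbp1 at the sham ZT2 end. At ZT14 the signal was 1.32-fold higher than at ZT2 in sham and 1.61-fold in ADX. It was 1.39-fold higher in ADX than in sham at ZT2 and 1.7-fold at ZT14. No single comparison reached 2-fold, although the highest and lowest arrays differed 2.24-fold.

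Igfbp4, the gene of a binding protein known to restrain IGF action, was read by 2 probe sets with Present calls. The brighter one (101571_g_at) gave 595.5, 768.5, 594.0 and 728.5, slightly higher at ZT14 in both operations (1.29-fold and 1.23-fold) and nearly equal between operations. The dimmer one (94222_at), designed on a separate cDNA clone, gave 24.2, 50.0, 41.1 and 47.1. Its 2.06-fold higher signal at ZT14 in sham rests on the low sham ZT2 array and passed 2-fold, but its log2 difference was 0.97 with signals as deposited and 0.96 under quantile normalization, both short of 2-fold. In ADX its day-night difference was 1.15-fold. At ZT2 it was 1.69-fold higher in ADX than in sham, short of 2-fold, where the brighter probe set was flat. The 2 probe sets thus shared a direction between times but not a pattern between operations.

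The genes of the circulating growth factor and of its complex partner varied little. Igf1 was read by 2 probe sets designed on the same sequence record. One (95545_at) gave 491.5, 505.5, 555.4 and 643.8, and the other (95546_g_at) 1677.0, 1509.5, 1480.1 and 1252.2. They ran in opposite directions, the first highest and the second lowest on the ADX ZT14 array, with total ranges of 1.31-fold and 1.34-fold. No direction is therefore given for Igf1. Igfals (97987_at) stayed between 270.5 and 305.1 on all 4 arrays, a range of 1.13-fold.

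Ghr, the receptor gene, was similarly level. Its probe set 99107_at lay between 358.8 and 397.7, and 99108_s_at between 684.9 and 804.9, ranges of 1.11-fold and 1.18-fold. For comparison, the robust SD of log2 differences over all probe sets with both arrays of the pair Present was 0.35 (sham) and 0.33 (ADX) between times, and between operations 0.25 (ZT2) and 0.31 (ZT14). No difference of Igfals or Ghr in any comparison exceeded these values.

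**Figure D2:**
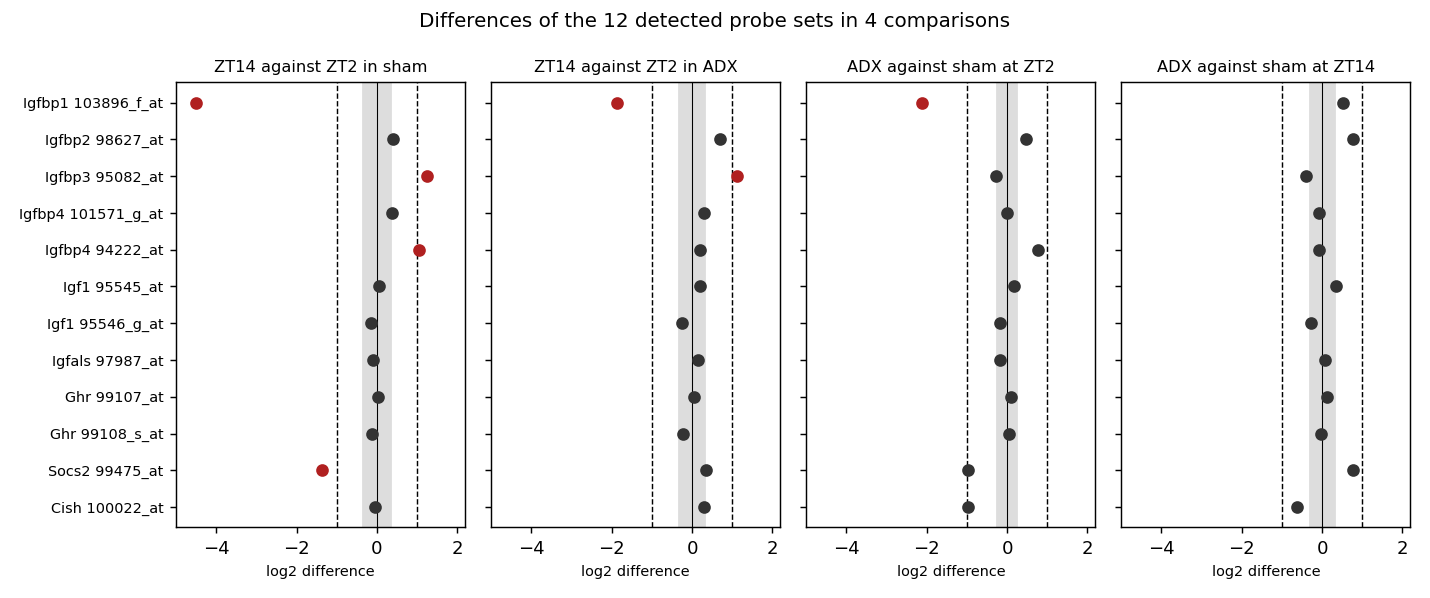
Log2 difference of each of the 12 probe sets in the 4 comparisons, as the first named group minus the second. Dashed lines mark 2-fold, the grey band is plus and minus the robust SD over all probe sets Present on both arrays, and red points passed 2-fold, among them Igfbp1 at -4.50, -1.86 and -2.13.

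Of the feedback inhibitor genes, Socs2 passed 2-fold in 1 comparison and Cish in none. Socs2 (99475_at), whose product is the inhibitor that limits body growth in mice, had signals of 84.4 (ZT2) and 32.3 (ZT14) in sham, and of 43.1 (ZT2) and 55.0 (ZT14) in ADX. It was 2.61-fold lower at ZT14 in sham and 1.28-fold higher at ZT14 in ADX. At ZT2 it was 1.96-fold lower in ADX than in sham, and at ZT14 1.7-fold higher in ADX, both short of 2-fold. Like Igfbp1, it was highest on the sham ZT2 array and lowest on the sham ZT14 array.

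Cish (100022_at), which encodes a related inhibitor that competes for receptor docking sites, had signals of 37.5 and 36.4 in sham at ZT2 and ZT14, and of 19.2 and 23.5 in ADX. Both ADX arrays were below both sham arrays, 1.95-fold lower at ZT2 and 1.55-fold lower at ZT14, while the times differed by 1.03-fold in sham and 1.22-fold in ADX. At ZT2 the log2 differences of Socs2 and Cish between operations, both -0.97, fell just short of the 2-fold line. They passed it with signals as deposited (-1.14 each) and under quantile normalization (-1.0 and -1.01). Without scaling, the median log2 difference over all probe sets Present on both arrays was itself -0.17 at ZT2 and -0.11 at ZT14.

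Of the 12 probe sets, 4 passed 2-fold between times in sham, Igfbp3 and 1 of Igfbp4 higher at ZT14 and Igfbp1 and Socs2 lower. Over all probe sets that could have passed, 5.95% did, 3.42% higher and 2.53% lower. In the ADX pair 2 of 12 passed (Igfbp3 higher, Igfbp1 lower) against 5.34% of all, 2.89% higher and 2.45% lower. Between operations at ZT2 1 of 12 passed (Igfbp1, lower in ADX) against 2.56% of all, 1.73% higher and 0.832% lower. At ZT14 0 of 12 passed against 4.07% of all, 2.45% higher and 1.62% lower. These shares include probe sets Present on 1 array of a pair, while the 12 were Present on all 4 arrays. Among the 4877 probe sets Present on all 4, 3.22%, 2.67%, 0.595% and 1.11% passed in the same order of comparisons. The split of all calls moved with the scaling: 57.5%, 54.1%, 67.5% and 60.2% of them were higher in these comparisons, but 46.6%, 49.1%, 44.2% and 43.4% without scaling and 45.6%, 42.4%, 45.6% and 49.4% under quantile normalization. The median log2 difference of the 12 was -0.01, 0.20, -0.09 and 0.01 in these comparisons, where that of all probe sets Present on both arrays lay between 0.00 and 0.02. The 9 genes were chosen with earlier results of these data known, so these counts describe them and test nothing.

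An additive limma fit over 5872 probe sets, with both operations as samples of each time and 1 residual degree of freedom, called none of the 12 for time or for operation at an adjusted p of 0.05, where 0.0341% and 0.0% of all were called. At an unadjusted p under 0.05 stood Igfbp1, Igfbp2 and Igfbp3 for time (3 of 12, against 13.2% of all) and Igfbp2 and Cish for operation (2 of 12, against 5.6%). For Igfbp3 the effect of ZT14 minus ZT2 was 1.18 on the log2 scale (SE 0.16, limma adjusted p = 0.199), higher in both pairs. For Igfbp1 it was -3.18 (SE 0.68, limma adjusted p = 0.277), lower in both pairs, its SE holding the unequal size of the pairs. Igfbp2 had 0.55 for time (SE 0.17, limma adjusted p = 0.344) and 0.62 for ADX minus sham (SE 0.17, adjusted p = 0.83), higher in both pairs each time. Cish had -0.80 for ADX minus sham (SE 0.18, limma adjusted p = 0.83), lower in ADX at both times. Over the alternatives, the limma adjusted p for time ran from 0.0222 to 0.576 for Igfbp1, from 0.0398 to 0.421 for Igfbp3 and from 0.0475 to 0.518 for Igfbp2, the lowest value of each coming from a variance trend on signal. With 4 arrays the p-values rest on how far the sham and ADX pairs differ, with variance shared over all probe sets of the fit. They measure no spread between replicates, and the differences between arrays may in part be technical.

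Of 16 measured genes of a list of 24 for growth hormone receptor signalling, a gene counting as measured when Present on at least 1 array, 2 passed 2-fold in any comparison. Over all 5007 measured genes 553 did, a like share. Both were lower at ZT14 in ADX: Bcl6, a repressor that opposes STAT5, at 200.3 on ADX ZT2 and 96.2 on ADX ZT14 (2.08-fold), and Ptpn2, a phosphatase of JAK kinases (nominally 2.48-fold, its ADX ZT14 array being Absent). Here and below, a nominal fold is taken over an array without a Present call and is not a lower limit. The Ptpn2 call was lost with a floor of 16.6 signal units, the 90th percentile of Absent signals (log2 -0.46). Bcl6 had 126.9 and 100.4 in sham, so its high array was ADX ZT2. Jak2 lay between 13.2 and 15.5 and Stat5a between 58.3 and 74.5 on the 4 arrays, and Stat5b was Present on 1 array only. The medians of this list were -0.17, -0.04, -0.07 and -0.01 for the sham pair, the ADX pair, ZT2 and ZT14, where those of all measured genes lay between 0.00 and 0.03.

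Other ligands, receptors and binding proteins of the IGF system were mostly not detected. Of 10 such genes on the array, only Igf2r and Htra1 were Present on any array, and Igf2, Igf1r, Igfbp6 and Igfbp7 were Present on none. Igf2r, the receptor that clears IGF2, lay between 47.7 and 61.5. Htra1, a protease that can cut binding proteins, had 18.1, 8.21, 18.7 and 17.2, low on the sham ZT14 array alone (2.21-fold below sham ZT2 and 2.09-fold below ADX ZT14), and none of its differences passed with the floor of 16.6 units. The difference between operations also fell short of 2-fold without scaling (log2 0.94) and under quantile normalization (0.99).

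In insulin receptor signalling, 3 of 11 measured genes passed 2-fold in any comparison, against 553 of 5007 over all. All 3 did so between times in sham, where 5.19% of all genes passed, and whether sham and ADX differ in them was not tested. Irs2 and Grb10 were each Present on 1 sham array only. They could pass only in comparisons with that array as the brighter, so nothing is read from the shared pair. Among probe sets Present on all 4 arrays only Pik3r1 passed. Pik3r1, the regulatory subunit of phosphoinositide 3-kinase, had 12.1, 32.2, 17.6 and 26.2, 2.65-fold higher at ZT14 in sham, with a log2 difference of 0.57 in ADX, short of 2-fold. Irs2, an insulin receptor substrate gene known to be repressed by insulin as Igfbp1 is, had 25.8 and 12.3 in sham and 21.1 and 6.72 in ADX, with a Present call on the sham ZT2 array only. It was nominally 2.1-fold lower at ZT14 in sham, and its log2 difference in ADX, -1.65, was larger in size but without a Present call on either array. Grb10, an adaptor that inhibits the insulin receptor, was Present only on sham ZT14 (9.68), nominally 2.27-fold higher there than at ZT2 (log2 0.95 under quantile normalization, short of 2-fold), with a log2 difference of 0.87 in ADX. The list's medians were 0.13 and 0.30 for the sham and ADX pairs and 0.01 and 0.05 for the operations at ZT2 and ZT14. All 3 calls were lost with the floor at 16.6 units.

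Among liver genes whose sex bias depends on the pattern of growth hormone secretion, 3 passed 2-fold between ADX and sham at ZT14. All 3 are known as female-biased and were higher in ADX. None had a Present call on a sham array, so they counted as measured through ADX arrays only. They could pass only as higher in ADX, and nothing is read from their shared direction. At ZT14 3.14% of all measured genes passed. Of the 15 measured genes of the list 5 passed in any comparison, against 553 of 5007 over all. Cyp2b9, a female-biased cytochrome P450 gene, had 8.98 and 6.25 in sham, without a Present call, and 29.8 and 238.4 in ADX. It was nominally 38.1-fold higher in ADX than in sham at ZT14. Cyp2b13, of the same gene family, and Hao2, a peroxisomal oxidase, were Present only on the ADX ZT14 array (16.5 and 12.7), nominally 4.23-fold and 3.25-fold above sham. Abcd2, a peroxisomal transporter, was nominally 2.24-fold higher at ZT14 in ADX. The male-biased Elovl3, a fatty acid elongase, was Present on the ZT2 arrays only. It was nominally 28.6-fold lower at ZT14 in sham and 13.5-fold in ADX, and no other male-biased gene measured passed. With the floor at 16.6 units Cyp2b9 and Elovl3 alone of the list passed. Cyp2b9 then had a log2 difference of 3.85 for ADX against sham at ZT14. Elovl3 had -2.76 and -2.62 between times in sham and ADX. Cyp2b13 and Hao2 had 0.0 for ADX against sham at ZT14. Hsd3b5, male-biased, had 1054.1, 706.5, 974.8 and 514.7, at most 1.89-fold apart within a comparison, and the probe sets of the major urinary protein family named Mup3 and Mup5, which share sequence, had log2 differences of 0.30 in size at most.

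**Figure D3:**
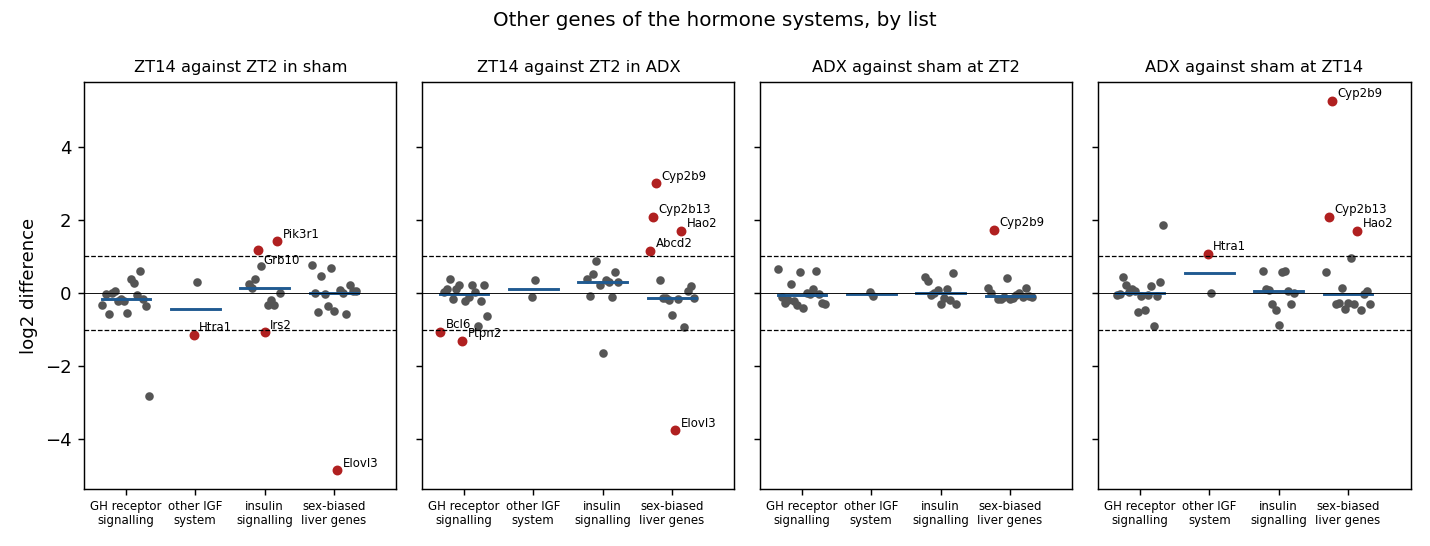
Log2 difference of every measured gene of the 4 lists (1 point per gene, from the brightest of its probe sets) in the 4 comparisons, with the median of each list as a blue line and 2-fold as dashed lines. Red named points passed 2-fold, and grey points beyond the lines had no Present call on the brighter array. Cyp2b9 lies highest, at 5.25, for ADX against sham at ZT14.

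The genes nearest to Igfbp1 in pattern were sought over the 4 arrays as the smallest Euclidean distance between log2 signals centred on their mean, among 4559 genes. They were Egr1, an immediate early gene (distance 1.32), Arntl, the clock activator gene (1.45), Denn2b (1.53), Aqp8, a water channel gene (1.57), and the tubulin gene Tubb2a (1.6). The profile of Igfbp1 itself had a length of 3.54 on this scale, so none was close. All of them had the sham ZT2 array on top and the ADX ZT2 array next, as Igfbp1 did. Egr1, at 76.3, 10.7, 34.2 and 14.3, had its sham ZT2 array well above its ADX ZT2 array, but was Present on 2 arrays only. Denn2b was also Present on 2, and Arntl on 3. Arntl (74.9, 5.47, 69.6 and 9.29) and Tubb2a (718.5, 110.9, 666.1 and 142.3) had nearly equal ZT2 arrays, unlike Igfbp1.

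Igfbp3 had closer neighbours, at distances of 0.12 to 0.25 against its own length of 1.23. They were Nabp1, a DNA-binding protein gene (0.12), Dpysl2 (0.20), Ifitm2 (0.23), 1810021B22Rik (0.24) and the mitochondrial adenylate kinase gene Ak4 (0.25). Ak4 was the brightest, at 65.2, 141.9, 59.5 and 134.9, with both ZT14 arrays above both ZT2 arrays. The other 4 had signals of at most 34.0. Dpysl2 was Present on 3 arrays, and Ifitm2 and 1810021B22Rik on 2 each, so their distances rest in part on signals without a Present call. With 4 arrays such likeness is a description only.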

How the data were processed

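Each array was deposited as an Affymetrix Signal (an intensity per probe set, linear scale) with a detection call and detection p-value, per the file headers; of the p-value, only the call derived from it was used. Neither software nor scaling target is named in the sources used here. The value table of the series held the same deposited intensities (largest difference 0). Groups and times came from sample titles.

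Each array was multiplied by 0.925 to 1.067 so that all had one 2% trimmed mean. A floor of 3.91 units, which is the median Absent signal, was set under the values before log2. After this, 66 control probe sets were dropped. A fold over an array without a Present call was computed against its signal or the floor, whichever was larger, and is written "nominally". Such a fold depends on the floor and is not a lower limit. Probe sets were named through the platform annotation (1 symbol for 10855), list genes also by gene ID in RefSeq, and a list gene was read from the brightest of its probe sets. The additive fit used limma 3.58.1 (R 4.3.3), took probe sets with 2 or more Present calls, and adjusted p-values by Benjamini-Hochberg over all of them. Other steps ran in Python 3.11.15. The additive fit was tested on simulated data with known effects of time and no effect of operation. The simulation used the same noise level for all probe sets and the same time effect in both operations. It therefore bears on the computation only, not on how well an additive fit describes these data. The number of arrays limits the precision.

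All probe sets of the 9 genes are named, with list genes past 2-fold in any comparison, direct partners (Jak2, Stat5a, Stat5b, Igf1r, Irs2) and the 5 genes nearest in pattern to Igfbp1 and to the member with the next widest range. Other list and marker genes named were chosen after their values were seen. The members and lists were chosen with earlier results of these data known. Alternatives changed the scaling, the floor, the fold, the detection filter and the fit.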

Additional observations from a re-analysis of the deposited data

Results flagged for a closer look

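For Socs2, the signal at ZT14 was below that at ZT2 in sham (log2 -1.38, past 2-fold) and above it in ADX (0.35), a difference of 1.74 between the pairs. It was singled out because the groups moved in opposite directions. For Igfbp1, ADX was below sham at ZT2 (-2.13, past 2-fold) and above it at ZT14 (0.52), a difference of 2.65, singled out for the same reason. With 1 array per group neither difference was tested, and in each gene the sham ZT2 array is the highest of the 4. No group had enough arrays to look for an array that stands apart within it.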

How the results depend on the processing

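The 48 log2 differences of the 12 probe sets were recomputed under 5 settings (no scaling, quantile normalization, and floors of 1, 7.82 and 16.6 units), and 234 of the 240 values kept their side of 2-fold. The other 6 belong to Igfbp4, Socs2 and Cish under the scalings, as given with those genes, and no called difference changed direction. The count of probe sets past 2-fold at ZT2 was 1, and 3 without scaling or under quantile normalization. At 1.5-fold it was 4, and the count at ZT14 was 3 instead of 0, where 10.3% and 14.4% of all probe sets passed. Members called for time by limma numbered 3 with a variance trend, which called 154 of 5872 probe sets in all (2.62%), and 0 under the other settings. Genes past 2-fold in any comparison numbered 2 for growth hormone receptor signalling (1 with the floor at 16.6 units, 4 at 1.5-fold, 1 among probe sets Present on all 4 arrays), 1 for other IGF genes (0 with that floor), 3 for insulin signalling (0, 6 and 1 under the same settings) and 5 for sex-biased genes (2, 8 and 0). Over all 5007 measured genes these settings gave 228, 1712 and 217 against 553. Calls over all probe sets in the sham pair split into 211 higher and 156 lower, but 161 and 192 under quantile normalization. Leaving out 1 array leaves the fit no residual degree of freedom and returns the single pair's difference given above. No paired analysis was possible because each group has 1 array and the labels give no replicate numbers. Signals below about 20 units lie near the range of Absent probe sets, among them Igfbp3 (18.8) and Cish (19.2) on the ADX ZT2 array, Htra1, Hao2 and Cyp2b13.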
